A study of Homo sapiens with 8 samples.

Results

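The ABC (ATP-binding cassette) transporter genes of the human genome were followed in pancreatic cancer cells with and without resistance to the drug indisulam. A gene was a member when it was annotated as protein-coding in GENCODE release 44 with a symbol made of ABC, a subfamily letter from A to G and a number, which gave 46 of the 60675 genes in the count tables and 46 of the 19920 protein-coding ones. Of these, 45 are separate genes and ABCF2-H2BK1 (ENSG00000285292) is a readthrough of ABCF2 and a histone gene. The cells were Panc10.05, an established line from a pancreatic ductal tumour. There were 4 groups of 2 libraries. Parental cells were without drug or given 2 µM indisulam for 18 h. Resistant cells were, for this RNA experiment, kept without a break on 2 µM indisulam or taken off the drug for 1 wk. The latter served as the untreated resistant group. The resistant line was raised by stepwise increase of the dose in culture, and the sources used here do not call it a single clone. Since the treated resistant cells lived on the drug and parental cells met it for the first time, the drug comparisons of the 2 lines differ in length of exposure as well as in line. Libraries of the same group are technical replicates by the account of the study, so the p-values measure the spread between these libraries, and no separate cultures are stated.

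ABC proteins bind and hydrolyse ATP through a pair of nucleotide-binding domains, and most use that energy to move a substrate out of the cytosol across a membrane. P-glycoprotein (ABCB1), MRP1 (ABCC1) and BCRP (ABCG2) are the classic pumps of multidrug resistance, because they carry many unrelated drugs or their glutathione conjugates out of the cell. Other members move cholesterol, phospholipids, bile salts, haem precursors, peptides, fatty acids or cobalamin, and the members of the E and F subfamilies have no membrane part and work on the ribosome. Indisulam is a sulfonamide that brings the splicing factor RBM39 to a ubiquitin ligase, after which RBM39 is degraded.

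Sequence from the 250 bases before the canonical start is shown for ABCB1 and for the members past 1 log2 unit in a comparison below. It is shown only where an exon-free run of 50 bases or more was found, and the printed runs end short of that start. The sequences are RefSeq promoters on GRCh38.p14, which held an entry for 35 of the 45 separate genes (not for ABCC1 or ABCC3, among others), and each was limited to the part of the 250 bases before the canonical start that lies in no annotated exon. ABCA7 (chr19:1039857-1039996, plus strand) and ABCA5 (chr17:69327245-69327383, minus strand) are shown from the bases before their first annotated exon, ABCB1 (chr7:87601079-87601134, minus strand) from an intron of longer ABCB1 transcripts, and ABCA10 (chr17:69228861-69229074, minus strand) from an intron of longer ABCA10 transcripts. Capitals mark matches on either strand to the GC box GGGCGG, the NF-Y motif CCAAT, the TATA box letters TATAAA, the AHR core GCGTG or the antioxidant element TGACNNNGC, and no 2 matches overlap in these runs.
ABCA7: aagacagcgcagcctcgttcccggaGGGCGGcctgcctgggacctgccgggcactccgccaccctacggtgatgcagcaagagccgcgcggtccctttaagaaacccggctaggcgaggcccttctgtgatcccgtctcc
ABCA5: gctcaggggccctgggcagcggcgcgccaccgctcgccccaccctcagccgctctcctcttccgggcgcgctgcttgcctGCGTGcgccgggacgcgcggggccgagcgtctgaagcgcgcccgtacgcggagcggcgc
ABCB1: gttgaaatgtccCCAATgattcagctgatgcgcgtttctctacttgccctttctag
ABCA10: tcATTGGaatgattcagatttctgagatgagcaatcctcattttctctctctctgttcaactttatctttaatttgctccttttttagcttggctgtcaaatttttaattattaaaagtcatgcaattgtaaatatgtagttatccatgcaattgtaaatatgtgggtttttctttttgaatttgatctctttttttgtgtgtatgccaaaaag

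Over the whole 250 bases, the 21 promoters of members with enough reads to be tested had a median GC content of 66.4% (from 31.2 to 85.6) and a median CpG ratio, observed over expected from base composition, of 0.85. The 14 promoters of members with too few reads had medians of 53.2% and 0.27, and all 19095 promoters had medians of 62.0% and 0.72. The GC box was found in 16 of the 21 tested members and 2 of the 14 others, against 53.9% of all promoters. The AHR core was found in 13 and 2, against 37.8%, and the antioxidant element in 6 and 0, against 11.7%. The NF-Y motif was found in 5 and 3, against 34.2%, and the TATA box in 4 and 1, against 9.5%. ABCA7 and ABCA5 have GC-rich runs, whereas the run before ABCA10 is rich in A and T. These are descriptions of letters, and binding of a factor was not measured.

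Each library held from 65266253 to 108002436 reads assigned to genes, and limits from such counts cover counting error alone. Of the ductal markers, KRT19 had 325 to 546, EPCAM 396 to 470 and MUC1 only 3.95 to 19.2 CPM (CPM, reads scaled to the library total after TMM). The group means of KRT7, KRT8 and KRT18 were highest in the resistant groups. In the labels, the notes on growth and treatment speak of A549, a lung line, but Panc10.05 stands in the titles and as the cell line, and this was followed. No reference library of either line was compared, so the markers given here do not decide between the 2 lines. Of the 4 lung markers NKX2-1 and SFTPB had no read in any library, SFTPC had at most 0.00914 CPM and NAPSA had 0.0258 to 0.198 CPM. The acinar CPA1 and CELA3A, the endocrine INS, GCG and CHGA, the leukocyte PTPRC and CD3E and the fibroblast DCN had no read either. Other markers of such cells did have reads: COL1A1 (fibroblast) had 1.34 to 3.96 CPM, with a mean of 3.92 in treated resistant cells and 1.44 to 1.59 in the other groups, VWF (endothelial) had 0.168 to 0.301, CD68 (leukocyte) at most 0.181 and the remaining ones, PRSS1, COL1A2, PDGFRB, PECAM1 and CDH5, at most 0.0832 CPM. Their part in the results was not tested.

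The 2 pumps best known from drug resistance besides MRP1 were close to undetected. ABCB1 (ENSG00000085563, chromosome 7, 87503017 to 87713323, minus strand) had 0 and 1 reads in untreated and 0 and 1 in treated parental libraries, and 1 and 1 in untreated and 2 and 5 in treated resistant libraries. ABCG2 (ENSG00000118777, chromosome 4, 88090150 to 88231628, minus strand) had 2 and 1, 0 and 0, 2 and 0, and 5 and 3 reads in the same order. The resistant indisulam libraries held the highest counts of both genes, though at most 5 reads in a library. A count of 3 reads corresponds to 0.0274 to 0.0462 CPM, depending on the library, and lower levels or differences among them were not detectable at this depth. In bulk RNA, few cells with a transcript and little transcript per cell cannot be told apart.

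Of the 46 members, 25 passed the filter on low counts and 21 did not. The readthrough ABCF2-H2BK1 and the transporters ABCA8 and ABCB5 had no read, and 19 of the 21 untested members, these included, had at most 5 reads in every library. The exceptions were ABCA4, the retinoid transporter of photoreceptors, with 3 to 21 reads, and ABCC11, with 3 to 11 reads. ABCC11 shares exon bases with LONP2 of the other strand, to which 99.9% of the reads of both went, and since the sources do not say whether strand was used in counting, its reads are uncertain. Also untested were the drug-efflux members ABCC6 and ABCC12, the channel subunit ABCC8, the lipid and bile salt transporters ABCA6, ABCA9, ABCA12, ABCA13, ABCB4, ABCB11, ABCG1, ABCG4, ABCG5 and ABCG8, and the peroxisomal ABCD2. Thus ABCB4 and ABCB11, the phospholipid and bile salt pumps of the liver canaliculus, and ABCG5 and ABCG8, which form the sterol pump of gut and liver, were at the limit of detection.

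The 21 untested members together reached 0.245 ± 0.016 CPM in untreated and 0.176 ± 0.061 in treated parental cells, and 0.214 ± 0.041 in untreated and 0.526 ± 0.094 in treated resistant cells (SD, n = 2). The resistant indisulam libraries stood highest, with 31 and 57 reads over the 21 genes. The share outside genes, among reads in genes, outside them or ambiguous, was 5.78 and 5.85% in those libraries. It was 4.43 and 5.11% when resistant cells were off the drug, 4.51 and 4.58% in treated parental cells and 5.81 and 5.94% in untreated ones. Its part in these sums was not tested.

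**Figure D1:**
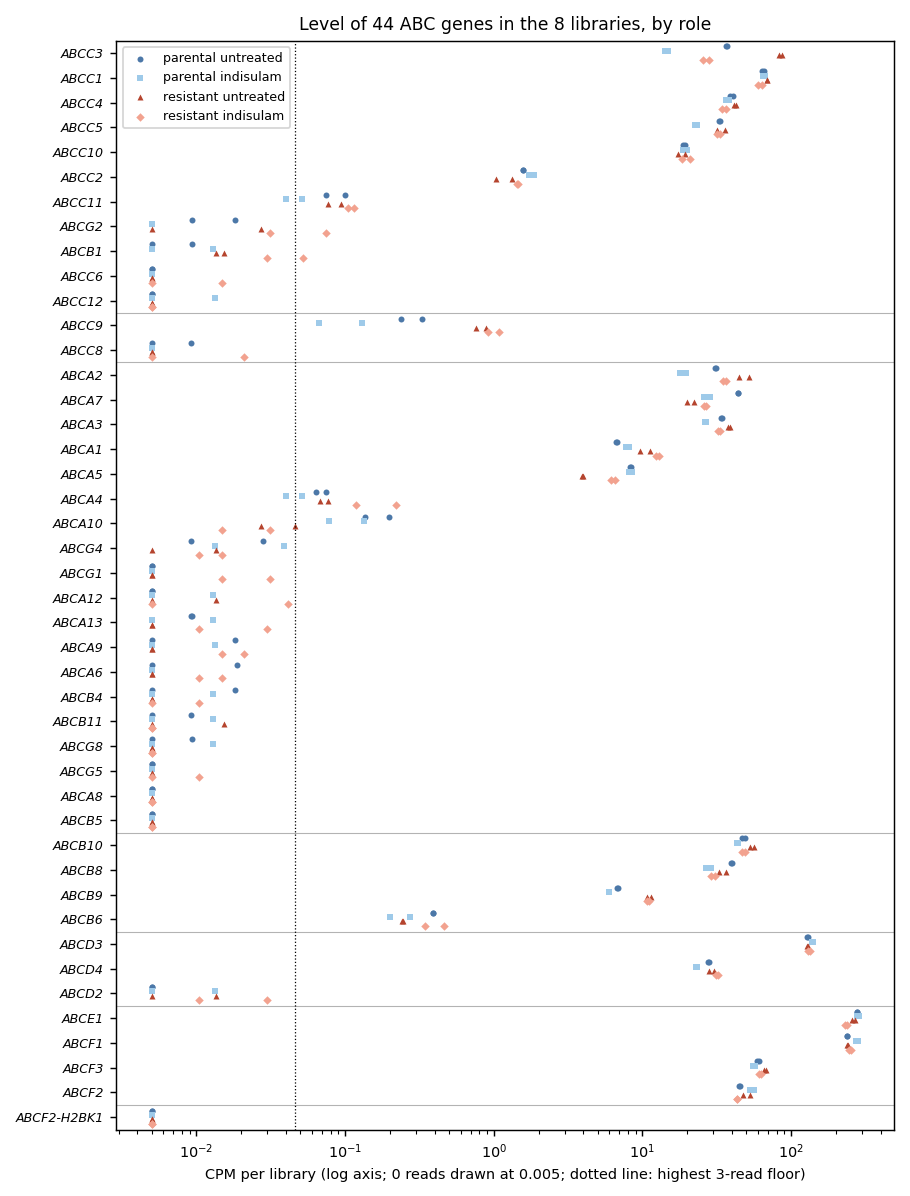
Level of 44 of the 46 ABC genes in the 8 libraries, grouped by role, in CPM on a log axis. Genes with 0 reads are drawn at 0.005, and the dotted line is the highest 3-read level of a library, 0.0462 CPM. ABCE1, ABCF1 and ABCD3 lie farthest right, and ABCB1 and ABCG2 lie to the left of the dotted line in all but the treated resistant group.

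The summed level of the 46 members was lower in treated than in untreated cells of each line, by more than the spread between libraries. It was 1238 ± 9.9 CPM in untreated and 1203 ± 12.7 in treated parental cells, and 1300 ± 2.12 in untreated and 1176 ± 6.36 in treated resistant cells (SD, n = 2). ABCE1 and ABCF1, the ribosome factors, made up between 38.0 and 46.8% of the reads of the members in each library. Per length, the most abundant member was ABCF1, with 52.7 ± 0.40 RPKM (CPM per kilobase of exon) in parental untreated cells, followed by ABCE1 with 44.4 ± 0.010, ABCD3 with 16.8 ± 0.19 and ABCF3 with 11.7 ± 0.25 RPKM.

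Among the 11 members grouped here as drug-efflux genes, ABCC6 included, 6 were tested, all of the MRP branch. In parental untreated cells their order per length was ABCC1 at 7.38 ± 0.17, ABCC4 at 4.58 ± 0.13, ABCC3 at 3.83 ± 0.026, ABCC5 at 2.91 ± 0.043, ABCC10 at 2.36 ± 0.044 and ABCC2 at 0.202 RPKM (SD, n = 2), with no overlap between neighbours. On indisulam the parental order was ABCC1, ABCC4, ABCC10, ABCC5, ABCC3 and ABCC2, since ABCC3 dropped to 1.51 ± 0.044 RPKM. In resistant untreated cells ABCC3 came first at 8.85 ± 0.28, above ABCC1 at 7.91 ± 0.011 RPKM. In resistant indisulam cells ABCC1 led again at 7.09 ± 0.27, and ABCC5 at 2.86 ± 0.10 and ABCC3 at 2.79 ± 0.20 RPKM overlapped. The other neighbours in these orders did not overlap. The sum of the 11 genes was 195 ± 3.1 CPM in untreated and 162 ± 0.21 in treated parental cells, and 249 ± 7.9 in untreated and 178 ± 5.3 in treated resistant cells.

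ABCC3 (MRP3, an exporter of glucuronides and bile salts on the basolateral side of epithelia) changed most among the drug-efflux genes. ABCC3 (ENSG00000108846, chromosome 17, 50634777 to 50692253, plus strand) had 37.0 and 36.6 CPM in untreated and 14.9 and 14.3 in treated parental libraries, and 83.2 and 86.9 in untreated and 28.1 and 25.4 in treated resistant libraries. The resistant untreated libraries were the highest and the parental indisulam libraries the lowest, without overlap between any groups. With indisulam it fell by 1.34 log2 units in parental cells (SE 0.047, adjusted p = 2.69e-15), and in resistant cells it fell by 1.67 (SE 0.042, adjusted p = 5.28e-19). It was higher in resistant than in parental cells by 1.21 log2 units untreated (SE 0.039, adjusted p = 1.32e-17) and by 0.87 on the drug (SE 0.049, adjusted p = 3.34e-13). Its fall was larger in the resistant line, with a difference of the responses of -0.34 log2 units (SE 0.063, adjusted p = 0.000134).

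ABCC1 (MRP1, an exporter of glutathione conjugates and many drugs) varied little. ABCC1 (ENSG00000103222, chromosome 16, 15949138 to 16143257, plus strand) had 63.4 and 65.5 CPM in untreated and 65.0 and 66.2 in treated parental libraries, and 69.0 and 69.2 in untreated and 63.6 and 60.3 in treated resistant libraries. The resistant indisulam libraries were the lowest and the 2 parental groups overlapped. It fell by 0.16 log2 units with indisulam in resistant cells (SE 0.034, adjusted p = 0.000352), and in parental cells its estimate was 0.03 (SE 0.033, adjusted p = 0.514). Against parental cells the resistant line was 0.10 higher untreated (adjusted p = 0.0115) and 0.09 lower on the drug (log2 fold change -0.09, adjusted p = 0.0271). Both of these calls were small and depended on the processing: with library totals alone the first was 0.07 (adjusted p = 0.0555) and the second turned to 0.002 (adjusted p = 0.965), the untreated call was also lost without parental untreated replicate 1 (0.08, adjusted p = 0.15), and the call on the drug without parental indisulam replicate 2 (-0.07, adjusted p = 0.176) or resistant indisulam replicate 2 (-0.05, adjusted p = 0.298). The difference of its responses was -0.19 (SE 0.047, adjusted p = 0.00213), and -0.07 with library totals (adjusted p = 0.208).

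The remaining MRP genes differed from each other. ABCC5 (MRP5, an exporter of cyclic nucleotides) had 32.7 and 33.4 CPM in parental untreated and 23.3 and 22.6 in parental indisulam libraries, and fell by 0.53 log2 units with the drug (SE 0.048, adjusted p = 1.62e-08). In resistant cells it had 31.9 and 35.9 CPM untreated and 33.3 and 31.7 on indisulam, with an estimate of -0.06 (adjusted p = 0.312). Without resistant untreated replicate 1 the resistant estimate was -0.15 and was called (adjusted p = 0.0122). The difference of the responses was 0.47 (SE 0.067, adjusted p = 1.1e-05), and on the drug ABCC5 was 0.50 higher in the resistant line (adjusted p = 1.74e-08). ABCC4 (MRP4, an exporter of cyclic nucleotides and prostaglandins) had 34.0 to 42.3 CPM over the 8 libraries and fell by 0.23 in resistant cells (SE 0.041, adjusted p = 3.73e-05). In parental cells ABCC4 had an estimate of -0.09, which was not called (adjusted p = 0.0705) but was with the replicate block (adjusted p = 0.0448), without parental indisulam replicate 2 (-0.115, adjusted p = 0.042) and under 3 other settings. Its difference of responses of -0.15 was called (adjusted p = 0.0303) but lost without parental untreated replicate 1 (-0.12, adjusted p = 0.145), without parental indisulam replicate 2 (-0.13, adjusted p = 0.0978), without resistant untreated replicate 2 (-0.15, adjusted p = 0.0522) and without resistant indisulam replicate 1 (-0.10, adjusted p = 0.167).

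ABCC10 (MRP7, which carries taxanes) had 17.4 to 20.9 CPM and passed the edgeR or DESeq2 test in none of the 5 comparisons, with estimates from -0.07 to 0.10 log2 units (unadjusted edgeR p from 0.138 to 0.936), though its change with the drug in resistant cells was called without resistant indisulam replicate 2 (0.19, adjusted p = 0.0264). ABCC2 (MRP2, the apical exporter of conjugates) had between 77 and 173 reads per library and was called in a single comparison, lower in resistant than in parental untreated cells at -0.43 log2 units (SE 0.14, adjusted p = 0.0121). That call was lost without resistant untreated replicate 1 (-0.25, adjusted p = 0.217) and with DESeq2 (-0.41, adjusted p = 0.101). Its rise with the drug in resistant cells (0.31, adjusted p = 0.0922) was called without resistant untreated replicate 2 (0.47, adjusted p = 0.0299), and its difference between the lines on the drug (-0.30, adjusted p = 0.0541) without resistant untreated replicate 1 or resistant untreated replicate 2 (-0.30 each, adjusted p = 0.0393 and 0.0402).

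The channel regulators are close relatives of the MRP pumps that gate a potassium channel instead of transporting a drug. ABCC9 (SUR2, a subunit of ATP-sensitive potassium channels; ENSG00000069431, chromosome 12, 21797389 to 21942543, minus strand) had 26 and 35 reads in untreated and 5 and 10 in treated parental libraries, and 56 and 58 in untreated and 73 and 88 in treated resistant libraries. These counts were 0.238 and 0.328, 0.0667 and 0.129, 0.756 and 0.893, and 1.08 and 0.915 CPM. Both resistant groups lay above both parental groups. With indisulam it fell by 1.505 log2 units in parental cells (SE 0.38, adjusted p = 0.00155), while in resistant cells the estimate was 0.27 (SE 0.19, adjusted p = 0.254). The resistant line was higher by 1.54 untreated (SE 0.23, adjusted p = 3.64e-06) and by 3.31 on the drug (SE 0.30, adjusted p = 7.51e-10), and the responses differed by 1.77 (SE 0.42, adjusted p = 0.0013). Among its known channel partners, KCNJ8 had no read and KCNJ11 had 0.659 to 1.21 CPM.

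**Figure D2:**
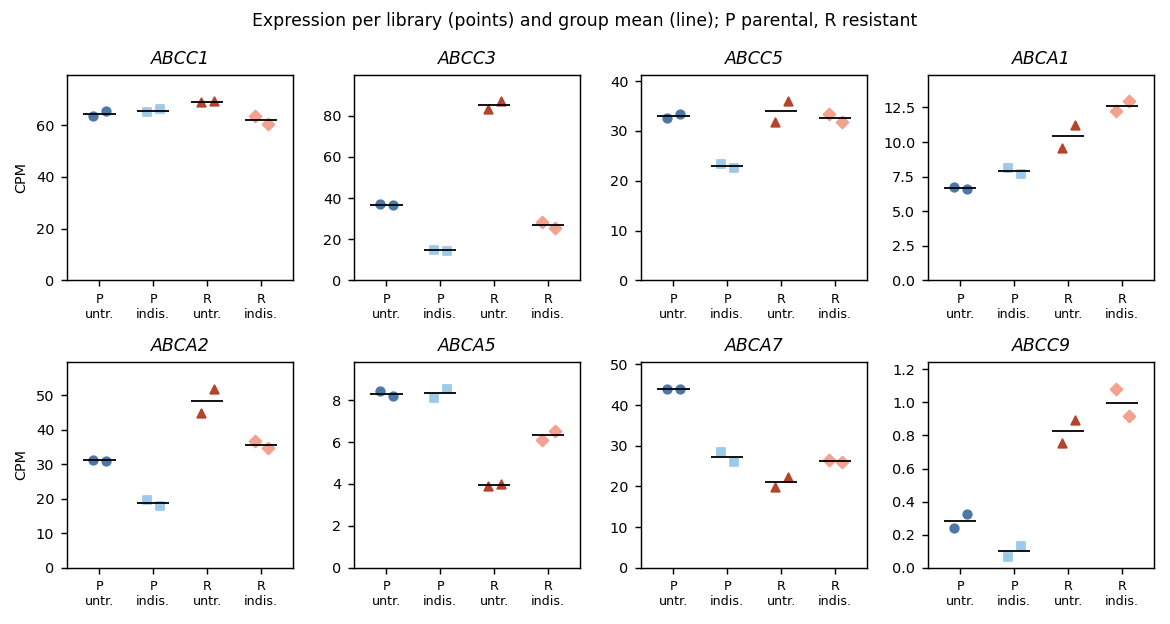
CPM of 8 ABC genes in each library, with 1 point per library and a line at the mean of the 2 libraries of a group (P, parental; R, resistant; untr., untreated; indis., indisulam); the axes start at 0 and differ between panels. ABCC3 ranges from 14.3 to 86.9 CPM, ABCC1 from 60.3 to 69.2 CPM, and the resistant groups of ABCC9 lie above its parental groups.

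Of the 19 members grouped here with the sterol and lipid transporters, ABCB5 among them, 6 were tested, and these went different ways. ABCA7 (a phospholipid transporter related to ABCA1; ENSG00000064687, chromosome 19, 1039997 to 1065572, plus strand), whose promoter run with its GC box is printed above, had 44.03 and 44.04 CPM in untreated and 28.5 and 25.9 in treated parental libraries, and 19.9 and 22.3 in untreated and 26.6 and 25.9 in treated resistant libraries. Parental untreated libraries were the highest and resistant untreated libraries the lowest, and on the drug the lines overlapped. It fell by 0.69 log2 units with indisulam in parental cells (SE 0.046, adjusted p = 3.4e-10) and rose by 0.31 in resistant cells (SE 0.052, adjusted p = 5.17e-05), a difference of 1.01 (SE 0.070, adjusted p = 1.64e-09). Between the untreated lines its log2 fold change was -1.06 (SE 0.049, adjusted p = 2.49e-13), and on the drug it was -0.06 (adjusted p = 0.33), or -0.12 and called without parental indisulam replicate 2 (adjusted p = 0.0475).

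ABCA5 (a transporter of lysosomal and endosomal membranes; ENSG00000154265, chromosome 17, 69244311 to 69327244, minus strand) had 8.42 and 8.21 CPM in untreated and 8.12 and 8.55 in treated parental libraries, and 3.902 and 4.004 in untreated and 6.11 and 6.53 in treated resistant libraries. The parental groups overlapped and the resistant untreated libraries were the lowest. Between the untreated lines its log2 fold change was -1.07 (SE 0.072, adjusted p = 4.23e-12). It rose by 0.68 with the drug in resistant cells (SE 0.077, adjusted p = 9.06e-08) against 0.004 in parental cells (adjusted p = 0.965), and the responses differed by 0.68 (SE 0.099, adjusted p = 5.4e-06). On the drug the resistant line was still lower, with a log2 fold change of -0.39 (adjusted p = 1.47e-05). Both ABCA7 and ABCA5 were thus higher in resistant cells kept on the drug than in those off it for 1 wk. The lines differed less on the drug for both genes, but for ABCA7 the treated parental cells had also fallen, by 0.69 log2 units.

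ABCA2 (a transporter of endolysosomal lipids) had 31.3 and 30.9 CPM in untreated and 19.8 and 17.9 in treated parental libraries, and 44.8 and 51.9 in untreated and 36.7 and 34.5 in treated resistant libraries. It fell with indisulam in both lines, by 0.72 (adjusted p = 5.69e-05) and by 0.44 log2 units (adjusted p = 0.000951), and was higher in resistant cells by 0.63 untreated (adjusted p = 6.14e-05) and 0.92 on the drug (adjusted p = 7.84e-06). ABCA3 (the phospholipid transporter of lung surfactant) had 26.3 to 39.0 CPM and had the same directions with smaller sizes, falling by 0.35 and 0.24 with the drug and standing 0.18 and 0.29 higher in resistant cells (adjusted p from 2.97e-08 to 0.000162). ABCA1 (the cholesterol and phospholipid exporter that loads apolipoprotein A-I) had 6.63 and 6.75 CPM in parental untreated libraries and up to 12.9 CPM in resistant indisulam libraries. It rose by 0.24 (adjusted p = 0.0051) and 0.28 (adjusted p = 0.000812) with the drug and was higher in resistant cells by 0.63 (adjusted p = 2.41e-08) and 0.68 (adjusted p = 4.22e-09). For these 3 genes the responses of the lines did not differ past the threshold (adjusted p = 0.0543, 0.0715 and 0.743), but for ABCA2 and ABCA3 this depended on the processing. The difference of ABCA2 was called with DESeq2 (0.27, adjusted p = 0.0101), with DESeq2 size factors in edgeR (0.27, adjusted p = 0.0403), with library totals (0.40, adjusted p = 0.0191), with no filter (0.31, adjusted p = 1.5e-06) and without parental indisulam replicate 1 (0.35), resistant untreated replicate 1 (0.18) or resistant untreated replicate 2 (0.38), and that of ABCA3 was called with library totals (0.23, adjusted p = 0.001).

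ABCA10 (ENSG00000154263, chromosome 17, 69147214 to 69244846, minus strand) had 15 and 21 reads in untreated and 10 and 6 in treated parental libraries, and 2 and 3 in untreated and 1 and 3 in treated resistant libraries. Both resistant groups lay below both parental groups, at or under the level of 3 reads in each library. ABCA10 passed the filter on low counts through the parental libraries alone, so this separation was set by the filter. Its fitted log2 fold changes between the lines were -2.16 untreated (SE 0.58, adjusted p = 0.00238) and -2.04 on the drug (SE 0.70, adjusted p = 0.0133), and as fitted values of so few reads they are no measure of size. They were not called with DESeq2 (adjusted p = 0.0515 and 0.0761), and the one on the drug was lost without parental indisulam replicate 1 (-1.60, adjusted p = 0.124) or resistant indisulam replicate 1 (-1.71, adjusted p = 0.0707). ABCA10 lies next to ABCA5, shares 318 exon bases with it on the same strand, and held 61 reads in all against 4659, so how reads were split between them is uncertain.

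The mitochondrial and lysosomal members were all tested. ABCB8 (of the mitochondrial inner membrane) had 26.9 to 39.8 CPM and fell by 0.50 in parental (adjusted p = 4.48e-07) and by 0.21 in resistant cells (adjusted p = 0.00342), a difference of 0.29 (adjusted p = 0.00378). The resistant call was lost without resistant indisulam replicate 2 (-0.16, adjusted p = 0.072). ABCB10 (also of the inner membrane, with a role in haem synthesis) had 43.1 to 56.0 CPM and fell by 0.13 and by 0.19, the former not called without parental untreated replicate 2 (-0.10, adjusted p = 0.0798).

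ABCB9 (TAPL, a lysosomal peptide transporter) stood out between the lines. It had 6.80 and 6.74 CPM in untreated and 5.92 and 5.93 in treated parental libraries, and 10.7 and 11.4 in untreated and 10.99 and 10.79 in treated resistant libraries. The resistant groups lay above the parental groups, with log2 fold changes of 0.71 (SE 0.059, adjusted p = 2.19e-10) and 0.88 (SE 0.062, adjusted p = 8.75e-12). With the drug it fell by 0.19 in parental cells (adjusted p = 0.0128), a call lost with DESeq2 (adjusted p = 0.0925) and without parental untreated replicate 1, parental indisulam replicate 1 or parental indisulam replicate 2 (adjusted p = 0.0637, 0.0541 and 0.0557). ABCB9 shares exon bases with OGFOD2 and ARL6IP4 on the opposite strand, which took 22.3 and 8.5% of the reads when paired with it.

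ABCB6 (a porphyrin transporter) had 43 and 42 reads in untreated and 15 and 21 in treated parental libraries, and 18 and 16 in untreated and 31 and 33 in treated resistant libraries. These were 0.393 and 0.393, 0.200 and 0.271, 0.243 and 0.246, and 0.460 and 0.343 CPM, so that it was lower in treated parental cells and higher in treated resistant cells than in their untreated groups. It fell by 0.73 in treated parental cells (adjusted p = 0.025), with an estimate of 0.68 in resistant cells (adjusted p = 0.0571) and a difference of 1.41 (SE 0.40, adjusted p = 0.00516). With DESeq2 none of its 4 calls was kept (adjusted p from 0.063 to 0.229), and 9 calls were lost over the fits with 1 library left out. Of its exon bases 54.6% are shared with ENSG00000284820 on the same strand, so its reads may have been counted in part elsewhere.

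ABCD4 (which takes cobalamin out of lysosomes) fell by 0.25 in treated parental cells (adjusted p = 1.53e-05) and rose by 0.13 in resistant cells (adjusted p = 0.0146), a difference of 0.38 (adjusted p = 1.17e-05). The resistant rise was lost with DESeq2 (0.12, adjusted p = 0.0723) and without resistant untreated replicate 1 (0.07) or resistant indisulam replicate 1 (0.11). ABCD3 (PMP70, the major peroxisomal membrane ABC protein) had 128 to 140 CPM and rose by 0.12 in treated parental cells (adjusted p = 0.00115), which was 0.05 with library totals (adjusted p = 0.131). Between the lines on the drug ABCD3 had a log2 fold change of -0.08 (adjusted p = 0.0167), which turned to 0.009 with library totals (adjusted p = 0.788) and was lost without parental indisulam replicate 1 (-0.08, adjusted p = 0.0521), parental indisulam replicate 2 (-0.07, adjusted p = 0.14) or resistant indisulam replicate 1 (-0.06, adjusted p = 0.0921).

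Of the ribosome factors, ABCF1 (a partner of the initiation factor eIF2) and ABCF2 rose by 0.22 and 0.29 log2 units in treated parental cells (adjusted p = 4.81e-07 and 7.59e-06). ABCE1 (which splits ribosomes after termination) had an estimate of 0.02 there (adjusted p = 0.48), which was -0.04 with library totals and -0.006 with no filter. In resistant cells ABCE1 fell by 0.16 (adjusted p = 4.34e-05) and ABCF2 fell by 0.22 (adjusted p = 0.000365), while ABCF1 had an estimate of 0.06 (adjusted p = 0.0658). ABCE1 had 277 and 277 CPM in parental untreated and 232 and 238 in resistant indisulam libraries, the lowest, and its responses differed by -0.19 (adjusted p = 0.00045), or -0.07 with library totals (adjusted p = 0.123). ABCF1 had 236 and 238 CPM in parental untreated and 272 and 281 in parental indisulam libraries, the highest, and its responses differed by -0.16 (adjusted p = 0.00224), or -0.04 with library totals (adjusted p = 0.368). ABCF2 had 44.6 and 45.1, 53.1 and 56.5, 52.9 and 47.6, and 43.4 and 43.2 CPM in the 4 groups, and its responses differed by -0.51 (SE 0.061, adjusted p = 1.33e-06). Treated cells were thus above untreated cells in the parental line and below them in the resistant line for ABCF2. ABCF3 fell in both lines, by 0.11 and by 0.11, and was 0.15 and 0.14 higher in resistant cells. Its fall in parental cells was lost without parental untreated replicate 2 (-0.08, adjusted p = 0.127) or parental indisulam replicate 1 (-0.08, adjusted p = 0.108), and that in resistant cells without resistant untreated replicate 1 (-0.09, adjusted p = 0.0889) or resistant indisulam replicate 2 (-0.09, adjusted p = 0.0907). OTUD4, on the opposite strand, shares exon bases with ABCE1 and took 24.6% of the reads of both.

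Counted over the family, indisulam lowered more members than it raised in parental cells. Of the 25 tested members, 17 were called (68%), against 58.2% of all 16661 tested genes, with 4 higher (against 31.6% of all genes) and 13 lower (against 26.6%). The members' median log2 fold change was -0.13, against 0.01 over all genes. Among the lower ones were 2 of the 6 drug-efflux genes, ABCC9, 3 of the 6 sterol and lipid genes, ABCB6, ABCB8, ABCB9, ABCB10, ABCD4 and ABCF3. Higher were ABCA1, ABCD3, ABCF1 and ABCF2. Past 1 log2 unit were ABCC9 and ABCC3, both lower, where 5.47% of all genes lay, and no member was higher, where 0.858% of all genes lay.

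In resistant cells 16 of the 25 were called (64%, against 50.7% of all genes), 5 higher (against 24.9%) and 11 lower (against 25.8%). The median was -0.06, against 0.01 over all genes. Among the higher ones were ABCA1, ABCA5, ABCA7 and ABCD4. ABCC1, ABCC3 and ABCC4 were the drug-efflux genes among the lower ones, and with all 8 libraries no drug-efflux gene was called higher with the drug in either line by edgeR or DESeq2, nor had one a higher estimate at an unadjusted edgeR p under 0.05. With a resistant library left out, ABCC2 or ABCC10 was called higher, as given above. ABCC3 alone passed 1 log2 unit, where 1.46% of all genes were lower and 3.74% higher. 

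**Figure D3:**
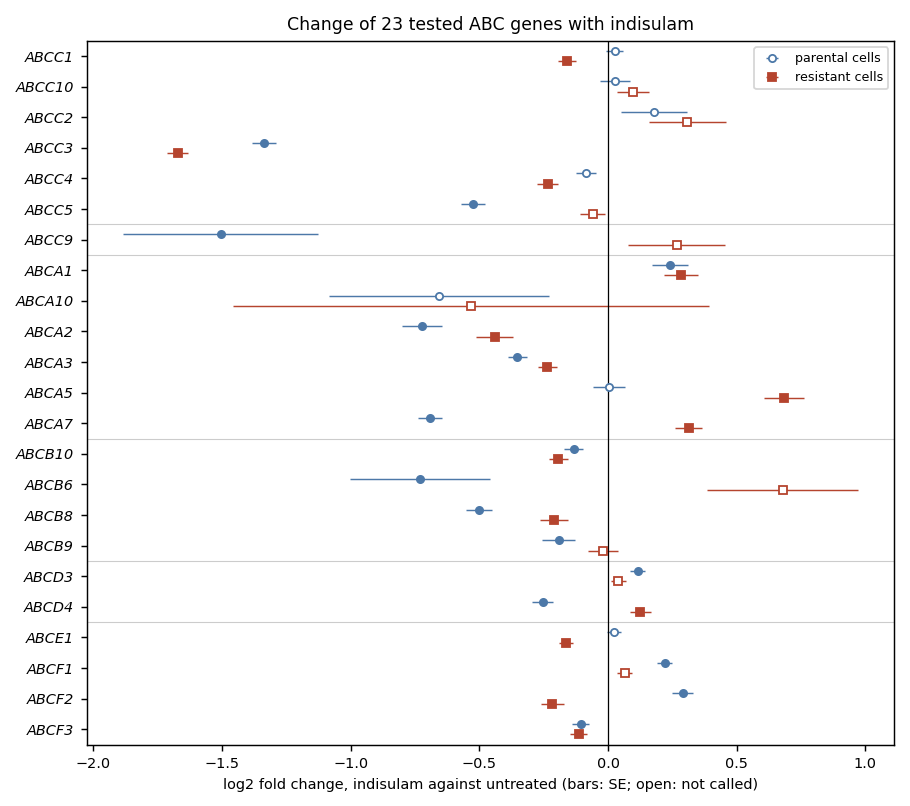
Log2 fold change of indisulam against untreated cells for 23 of the 25 tested ABC genes, grouped by role, in parental (circles) and resistant cells (squares), with bars for 1 SE; filled symbols were called at an adjusted p under 0.05. ABCC3 lies at -1.34 and -1.67. ABCA7, ABCD4 and ABCF2 were called on opposite sides of 0 in the 2 lines, though the resistant call of ABCD4 was lost with DESeq2. ABCC9 is among the others on opposite sides, with its resistant estimate not called.

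Between the untreated lines 18 members were called (72%, against 60.1% of all genes), 11 higher in resistant cells (against 30.3%) and 7 lower (against 29.9%). The median was 0.07, against -0.02 over all genes. ABCC9 and ABCC3 were higher past 1 log2 unit, where 6.93% of all genes lay, and ABCA10, ABCA5 and ABCA7 were lower past it, where 4.08% lay. ABCA10 passed the filter on low counts through the parental libraries alone and so had to differ between the lines, and nothing is read from its call. Of the 7 lower members 3 were lost with DESeq2 beside ABCA10, namely ABCB6, ABCC2 and ABCE1, and without resistant untreated replicate 1 the count was 4. ABCE1, with a log2 fold change of -0.08, was also lost without each of both parental untreated libraries, both parental indisulam libraries and resistant untreated replicate 2 (adjusted p from 0.0573 to 0.338). Without resistant untreated replicate 1 the calls of ABCB8 (-0.10, adjusted p = 0.0809) and ABCF2 (0.09, adjusted p = 0.0716) were lost and those of ABCC5 (0.13, adjusted p = 0.0187) and ABCD4 (0.14, adjusted p = 0.0111) were gained.

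On the drug 20 members were called (80%, against 69.5% of all genes), 12 higher in resistant cells (against 34.6%) and 8 lower (against 34.9%), with a median of 0.10 against 0.003. ABCC9 passed 1 log2 unit upwards, where 12.4% of all genes lay. ABCA10 passed it downwards, where 2.32% lay, and as above nothing is read from its call. ABCC3, ABCC5, ABCA1, ABCA2, ABCA3, ABCB6, ABCB9, ABCB10, ABCD4 and ABCF3 were also among the higher members, of which ABCB10 was lost without resistant indisulam replicate 2 (0.095, adjusted p = 0.0806) and ABCB6 with DESeq2 (0.76, adjusted p = 0.152) and without parental indisulam replicate 1 (0.53, adjusted p = 0.187) or resistant indisulam replicate 1 (0.54, adjusted p = 0.167). These comparisons share libraries with the drug comparisons above, so their values are not independent of them.

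**Figure D4:**
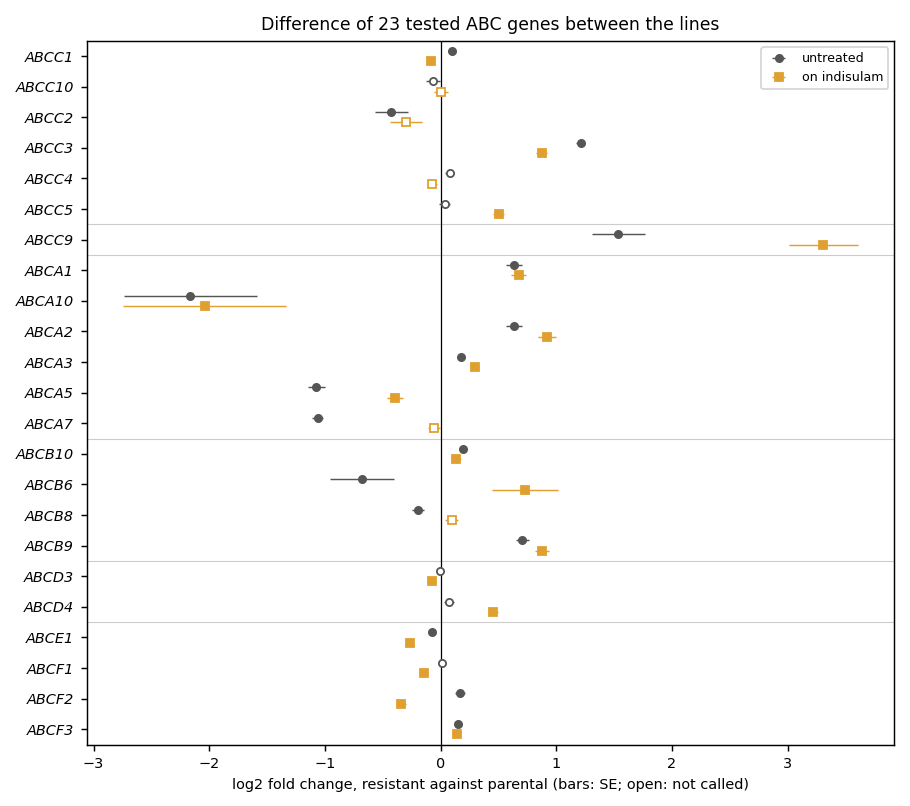
Log2 fold change of resistant against parental cells for 23 of the 25 tested ABC genes, grouped by role, untreated (circles) and on indisulam (squares), with bars for 1 SE; filled symbols were called at an adjusted p under 0.05. ABCC9 lies farthest right at 1.54 and 3.31, and ABCA10, at -2.16 and -2.04, farthest left on 1 to 21 reads.

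The responses of the lines differed for 15 of the 25 members (60%, against 50.1% of all genes), 8 higher in the resistant line (against 22.7%) and 7 lower (against 27.5%). The median difference was 0.12, against 0.01. Past 1 log2 unit were ABCC9, ABCB6 and ABCA7, all higher, where 7% of all genes lay, against 0.774% that were lower by as much. With library totals in place of TMM the median of all genes moved from 0.01 to 0.12, and 2 members were lower, against 2770 of all 16661 genes.

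Outside the symbol rule there are 3 further ABC proteins, TAP1 and TAP2 (which together carry peptides into the endoplasmic reticulum for MHC class I) and CFTR, which had a single read in 1 library. TAP1 had 62.3 and 60.0 CPM in untreated and 69.2 and 68.1 in treated parental libraries, and 156 and 155 in untreated and 87.6 and 85.8 in treated resistant libraries. TAP1 was higher in resistant untreated than in parental untreated cells by 1.35 log2 units (SE 0.030, adjusted p = 2.13e-21) and fell by 0.84 with the drug in the resistant line (adjusted p = 1.12e-16), while it rose by 0.17 in parental cells (adjusted p = 7.06e-05), a difference of -1.01 (adjusted p = 1.68e-14). TAP2 fell in both lines, by 0.19 and by 0.41. TAPBP, their chaperone, fell by 0.53 and by 0.44 and was higher in the resistant line by 0.72 untreated and 0.81 on the drug.

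Of 18 listed receptors and other regulators of ABC genes 15 were tested. NR1I2 (PXR) and NR1I3 (CAR), the xenobiotic sensors that control ABCB1 in liver and gut, had at most 1 and 2 reads in a library. With indisulam 6 of the 15 were higher and 4 lower in parental cells (against 31.6 and 26.6% of all genes), and 4 and 5 in resistant cells (against 24.9 and 25.8%). NFE2L2 (NRF2) rose by 0.44 and AHR by 0.26 in parental cells, and PPARA fell by 0.48 and by 0.49 in the 2 lines. In resistant cells AHR rose by 0.18 (adjusted p = 0.00792), while NFE2L2 had an estimate of -0.01 (adjusted p = 0.745). The largest rises there were those of HIF1A (0.43) and PPARD (0.41). NR1H3 (LXR-alpha, which controls ABCA1) fell by 0.37 in parental cells. KEAP1 was lower in the resistant line, with log2 fold changes of -0.42 untreated and -0.68 on the drug.

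Of 12 listed drug-oxidising P450 genes and their reductase 4 were tested. With indisulam 2 were higher and 1 lower in parental cells (against 31.6 and 26.6% of all genes), and 1 and 2 in resistant cells (against 24.9 and 25.8%). CYP1A1, the classic AHR target, had 2.71 and 2.75 CPM in untreated and 11 and 9.67 in treated parental libraries, and 3.71 and 3.36 in untreated and 5.04 and 5 in treated resistant libraries. It rose by 1.92 (SE 0.081, adjusted p = 1.07e-14) in parental and by 0.50 in resistant cells (adjusted p = 7.3e-05), a difference of -1.42 (adjusted p = 4.8e-09). CYP1B1 rose by 1.17 in parental cells and fell by 0.41 in resistant cells. CYP2D6 fell by 1.28 in parental cells and had an estimate of 0.43 in resistant cells, which was not called. CYP3A4 had no read.

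Of 24 listed genes of glutathione supply and conjugation 16 were tested, 10 higher and 2 lower with indisulam in parental cells (against 31.6 and 26.6% of all genes) and 3 and 5 in resistant cells (against 24.9 and 25.8%). Between the untreated lines 9 were higher and 2 lower in resistant cells (against 30.3 and 29.9%). GSTP1, which conjugates drugs with glutathione, had 30.1 and 31.4 CPM in parental untreated and 102 and 98.7 in resistant untreated libraries, and was higher by 1.71 (SE 0.036, adjusted p = 6e-22) and, on the drug, by 1.60 log2 units. GCLC, the rate-limiting enzyme of glutathione synthesis, rose by 0.50 in parental cells, while GSS fell by 0.59 in parental and by 0.35 in resistant cells.

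Of 20 listed uptake carriers 14 were tested, with 2 higher and 7 lower on indisulam in parental cells (against 31.6 and 26.6% of all genes), and 3 and 8 in resistant cells (against 24.9 and 25.8%). SLC28A3, a nucleoside carrier, rose by 1.05 and 1.01 log2 units in the 2 lines, and SLC22A4 fell by 0.91 and by 0.66. SLC46A1, the folate carrier, was 1.47 higher in the resistant line untreated and 1.14 higher on the drug, and SLC31A1, the copper importer, had a log2 fold change of -1.22 on the drug.

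The 9 companions of sterol efflux were all tested. In resistant cells 6 rose and 1 fell with indisulam (against 24.9 and 25.8% of all genes), in parental cells 2 rose and 5 fell (against 31.6 and 26.6%), and between the untreated lines 7 were lower in the resistant line (against 29.9%). Unlike those 7, ABCA1 was higher in the untreated resistant line. LPCAT3, a phospholipid-remodelling LXR target, fell by 0.90 in parental and by 0.74 in resistant cells. SCD rose by 0.55 in resistant cells. Of 12 listed partners of ABC proteins 11 were tested. With indisulam 5 were higher and 2 lower in parental cells (against 31.6 and 26.6% of all genes), and 1 and 6 in resistant cells (against 24.9 and 25.8%). PEX3, a peroxisomal membrane factor, fell by 1.17 in parental and by 0.84 log2 units in resistant cells. ABCD3 rose by 0.12 in parental and had an estimate of 0.04 in resistant cells.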

How the data were processed

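RNA was sequenced from 8 libraries of Panc10.05 cells, parental or resistant to indisulam. The authors prepared stranded polyadenylated libraries, aligned paired reads to GRCh38 with HISAT2 2.2.1 and deposited raw read counts per gene, 60675 Ensembl genes and 9 lines of unassigned reads per library. The notes also name Picard and HTSeq, and the strand setting and annotation release of the counting are not given in the sources used here. Symbols, positions and exon lengths came from GENCODE 44, which matched 60419 identifiers.

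The lines not assigned to a gene were left out. They held unmapped, duplicate and ambiguous reads and reads of low mapping quality, as well as reads outside genes. Marked duplicates alone were 14779681 to 33542117 per library. Of the reads in genes, outside genes or ambiguous, 4.43 to 5.94% fell outside genes. The counts were fitted with edgeR 4.0.16 in R 4.3.3 (filterByExpr, minimum count 10 and total 15, which left 16661 genes; TMM; robust quasi-likelihood model of 4 group means over 8 libraries, 4 residual degrees of freedom), with p adjusted by Benjamini-Hochberg over all genes tested and calls at 0.05. CPM used TMM library sizes, and RPKM divided CPM by the union exon length. An exact two-sided permutation test of 2 against 2 cannot go below 0.333, so none was used. The depth, 65266253 to 108002436 reads per library, puts 3 reads at 0.0274 to 0.0462 CPM, for counting error alone.

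Values of 2 members are not reported here, though counts and sums over the members include them. The members and gene lists were chosen with earlier results of these data known, and list counts are descriptions. Values per library are given for ABCB1, ABCC1, ABCG2 and for called members past 1 log2 unit whose libraries did not overlap, up to 8 a direction, with others, and list genes near 0 reads, added after their values were seen, and in lists the 2 largest called changes each way could be named. The alternatives were DESeq2 1.42.0 (size factors, Wald test), library totals, no filter, the compared groups alone, a replicate block, a glmTreat test against 0.5 log2 units and each library left out. The code was tested on simulated counts. Titles give every group the same replicate numbers, and deviations of same-numbered libraries from the group means correlated by -0.192 to 0.137 over the 6 pairs of groups, so the numbers were not taken to pair the libraries. Python 3.11.15 with matplotlib 3.10.9 drew the figures.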

Additional observations from a re-analysis of the deposited data

Results flagged for a closer look

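For 15 ABC genes the 2 lines responded differently to indisulam, past the threshold, by the edgeR quasi-likelihood test of the interaction, where 50.1% of all genes differed. Of these genes, 13 are given here. The lines also differed in length of exposure to the drug, which cannot be told apart from line. The difference is the log2 response of resistant minus that of parental cells. It was higher in the resistant line for ABCC9 (1.771), ABCB6 (1.409), ABCA7 (1.006), ABCA5 (0.679), ABCC5 (0.465), ABCD4 (0.38) and ABCB8 (0.29). It was lower for ABCF2 (-0.507), ABCC3 (-0.336), ABCE1 (-0.187), ABCC1 (-0.186), ABCF1 (-0.157) and ABCC4 (-0.151). Of the lower differences given, 4 were lost with library totals, those of ABCE1, ABCC1, ABCF1 and ABCC4. With DESeq2 the differences of ABCB6 and ABCC4 were not called (adjusted p = 0.063 and 0.0586). ABCB6 had only 15 to 43 reads per library, and ABCC9 only 5 and 10 in the treated parental libraries. For ABCA7, ABCD4 and ABCF2 both responses were called and had opposite signs, while for ABCC3 and ABCB8 both lines fell. The resistant rise of ABCD4 was lost with DESeq2 (0.12, adjusted p = 0.0723).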

How the results depend on the processing

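Beside the counts of members called in the report, library totals alone gave 8 higher with the drug in resistant cells (5095 of all 16661 genes). They gave 4 lower in resistant than in parental cells when both were on the drug (4619 of all genes). For the difference of responses they gave 2 lower (2770 of all genes). Library totals also turned ABCC1 to 0.002 and ABCD3 to 0.009 in the comparison of the lines on the drug. With them the share of calls that were higher, over all genes, moved from 54.3 to 42% for the parental drug comparison, from 49.1 to 59.7% for the resistant one, from 49.8 to 59.7% between the lines on the drug and from 45.2 to 65.8% for the difference. DESeq2 gave 3 lower between the untreated lines, against 3801 of all 16661 genes. The glmTreat test, which asks for more than 0.5 log2 units, gave 0 higher and 4 lower in treated parental cells (140 and 902 of all 16661 genes). It gave 0 and 1 in treated resistant cells (524 and 355 of all genes) and 3 and 3 between the untreated lines (1558 and 1024). On the drug it gave 6 and 0 (2468 and 1041), and for the difference 2 and 0 (746 and 162). At an unadjusted p under 0.05 it passed 4, 2, 8, 7 and 4 members. With 1 library left out, the counts higher and lower were 4 to 4 and 10 to 13, 4 to 7 and 9 to 11, 10 to 12 and 4 to 7, 11 to 13 and 6 to 9, and 7 to 9 and 6 to 7 in the same order, with the 4 lower between the untreated lines when resistant untreated replicate 1 was left out; a lone library was assumed to vary like the other groups. The replicate block, in which same-numbered libraries form pairs, lost no member's call and gained that of ABCC4 in parental cells (-0.085, adjusted p 0.0448), with 8206 to 11472 calls over all genes; crossing the numbers of the resistant libraries, chosen after the data had been seen, gave 8295 calls for their drug comparison. Of the 725 member values under the planned settings beside leaving out a library, 676 kept their direction and call (a change of sign with no call either way counted as kept, 21 values), 30 lost and 17 gained a call and 2 reversed. Of 1000 values with a library left out, 937 (28 such changes of sign included), 44, 19 and 0 did so. Genes with under 3 reads in a library are beyond the depth here. The cause of these changes was not tested.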
